A study of Sus scrofa with 40 samples.

Results

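10 genes best known from muscle, CKM, MYOM2, ACTA1, ACTA2, MYL2, TNNC1, TNNT1, DES, MB and MYH11, were followed in pig kidney through warm ischemia and cold storage. Probes were chosen by the gene symbol in the name or description columns of the array, and for MYOM2 by the gene ID in the name column, which the RefSeq gene table of the pig assembly Sscrofa11.1 pairs with that symbol. This gave 45 probes for 9 genes, out of 43603 probes on the array: 16 for ACTA1, 11 for CKM, 5 for DES, 4 each for ACTA2 and TNNT1, 2 for MYL2 and 1 each for MYOM2, TNNC1 and MB. MYH11 was not analysed here. The genes were chosen because CKM and MYOM2 were already known to be higher after cold storage in these arrays, so for both of them every difference between cold-stored and other kidneys below is a description without a test.

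The 40 arrays came from the kidneys of 3-month-old Large White pigs, with 5 arrays in each of 8 groups. Ctl kidneys were frozen directly after removal. WI kidneys were clamped and kept at 37 °C for 60 min. WI+CS6h and WI+CS24h were the same 5 kidneys, treated like WI and then flushed with University of Wisconsin preservation solution and kept at 4 °C for 6 h and 24 h, so the effect of cold was only measured after warm ischemia, and Ctl, WI and the cold-stored kidneys were separate organs. Each kidney was sampled in the cortex (C) and at the corticomedullary junction (CMJ), the border between cortex and medulla. The pigs were brothers per the methods of the study, and no kidney was stored in the cold without warm ischemia. Values are quantile-normalized log2 signals, so a difference of 1 is a doubling. A probe was called changed at an adjusted p under 0.05 (limma, Benjamini-Hochberg over all probes) with a log2 difference of at least 0.5. The main fits had no term for the kidney, so samples of 1 kidney, from both tissues or both cold times, were treated as separate. Between 57.01% and 69.91% of the spots of an array were well above background, with overlapping ranges in all 8 groups.

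Striated muscle contracts through the sarcomere, in which myosin filaments pull on actin filaments under the control of troponin and calcium. Creatine kinase (CKM) regenerates ATP beside the filaments, myomesin-2 (MYOM2) crosslinks the thick filaments at the M-band, and myoglobin (MB) stores oxygen. Smooth muscle and the contractile cells around vessels use ACTA2, the smooth muscle actin, and desmin (DES) forms intermediate filaments in muscle of all kinds, while ACTA1 is the skeletal muscle actin and MYL2 the light chain of slow and cardiac myosin. Kidney has smooth muscle in its vessels and no striated muscle. In bulk RNA, more cells of a type and more RNA per cell cannot be told apart.

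The results turned on which probe was read, so the oligonucleotides (60 bases each, 5′ to 3′) are shown first. A pair of CKM probes overlap each other and behaved differently. Capitals mark the longest run they share, 21 bases, and the 9 bases before it match as well once 1 base of the probe from base 1157 is skipped.
CKM probe from base 1128: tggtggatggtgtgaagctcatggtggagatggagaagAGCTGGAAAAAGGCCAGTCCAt
CKM probe from base 1157: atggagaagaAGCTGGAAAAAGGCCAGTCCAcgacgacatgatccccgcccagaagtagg
A second CKM pair has starts 65 bases apart, without overlap, and is shown because the first rose with cold storage and the second was the brightest CKM probe.
CKM probe from base 540: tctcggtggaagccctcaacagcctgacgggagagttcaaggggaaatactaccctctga
CKM probe from base 605: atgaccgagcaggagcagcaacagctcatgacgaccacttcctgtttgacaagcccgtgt
The only MYOM2 probe was this one.
MYOM2 probe from base 595: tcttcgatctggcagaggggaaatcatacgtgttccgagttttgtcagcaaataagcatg

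CKM, the muscle creatine kinase, was higher after cold storage by 7 of its 11 probes and by much less, 0.62 or under on the log2 scale, by the other 4. The 7 probes start at bases 540, 968, 1128, 1344, 1383 and 1481 of the reference mRNA and at base 1587 of a cDNA, and this split was made after their values were seen, at a log2 rise of 1 in WI+CS6h-C against Ctl-C. The lowest of the 7 rose by 1.39 and the highest of the other 4 by 0.52. The probes from bases 540 and 1128 were well above background on 2 of 5 Ctl-C arrays and that from base 968 on 4, so folds are given for the 4 others, from bases 1344, 1383, 1481 and 1587, which were so on every control array. Against Ctl-C, these were 2.61- to 4.66-fold higher in WI+CS6h-C and 2.91- to 5.28-fold higher in WI+CS24h-C. In CMJ they were 2.12- to 2.71-fold higher after 6 h and 2.15- to 2.92-fold higher after 24 h than in Ctl-CMJ. Over the 40 arrays the 7 probes followed each other closely, with Pearson r from 0.97 to 0.995 among them. They were chosen by their rise in these same arrays, so nothing is read from this, and those from bases 1481 and 1587 share 51 bases in a row.

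The CKM probe from base 1481 shows the course. In Ctl-C its log2 signal was 5.19, 4.89, 5.25, 4.73 and 5.62, and in WI-C it was 4.94, 5.22, 5.08, 5.15 and 4.91. After cold storage the cortex gave 8.00, 7.83, 6.64, 6.34 and 7.98 at 6 h and 7.72, 8.25, 6.20, 6.99 and 8.27 at 24 h. Every cold-stored cortex sample lay above every Ctl-C and WI-C sample. The difference of WI+CS6h-C from Ctl-C was 2.22 (4.66-fold) and that of WI+CS24h-C was 2.35 (5.10-fold). Against WI-C the differences were 2.29 (4.91-fold) and 2.42 (5.37-fold). The size depended on the background correction: with normexp and an offset of 50, which compresses low signals, the differences from Ctl-C were 0.82 and 0.90.

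**Figure D1:**
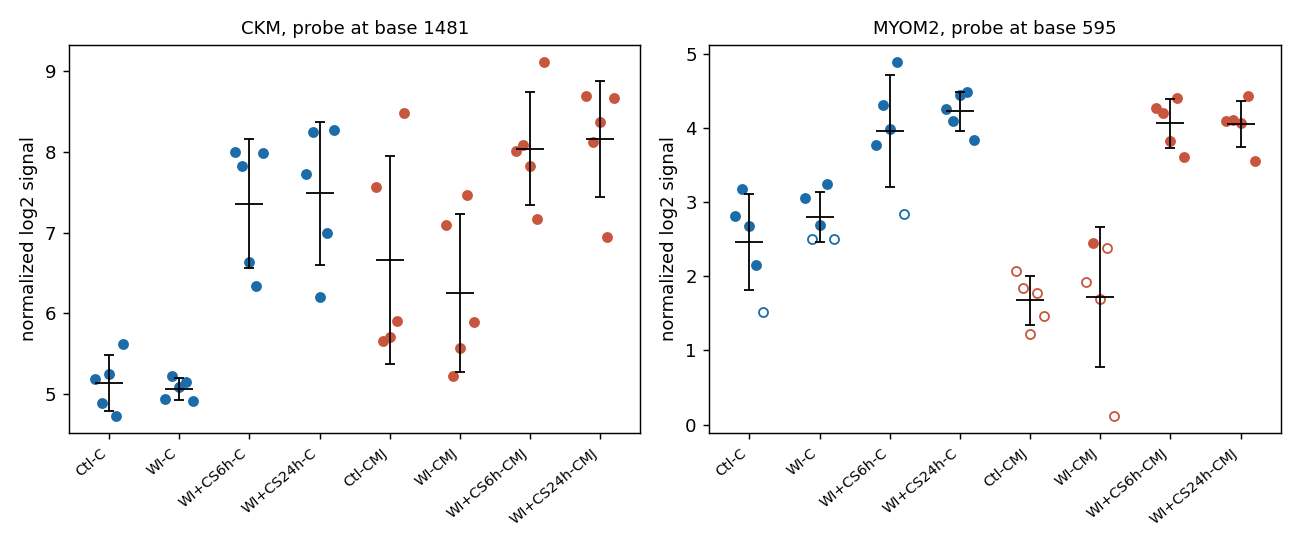
Normalized log2 signal of the CKM probe from base 1481 (left) and of the MYOM2 probe (right) in each of the 8 groups, with C in blue and CMJ in red. Points are arrays (open where not well above background), and the bar and whiskers are the mean and SD of 5 arrays. CKM in Ctl-C sits between 4.73 and 5.62 and in cold-stored cortex between 6.20 and 8.27, while Ctl-CMJ spreads from 5.66 to 8.48.

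In CMJ the starting point was higher and more spread out. The probe from base 1481 gave 7.56, 5.66, 5.70, 5.90 and 8.48 in Ctl-CMJ and 7.09, 5.22, 5.57, 7.46 and 5.89 in WI-CMJ. After cold storage it gave 8.01, 8.08, 7.82, 7.17 and 9.11 at 6 h and 8.69, 8.12, 8.37, 6.95 and 8.67 at 24 h. Ctl-CMJ replicates 1 and 5 were as high as cold-stored samples, so the groups overlapped in CMJ. The difference from Ctl-CMJ was 1.38 (2.60-fold) at 6 h and 1.50 (2.83-fold) at 24 h.

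For the 7 probes together, arrays of cold-stored and control kidneys did not overlap for most probes in cortex. Of all 11 CKM probes, 6 were higher without overlap in WI+CS6h-C than in Ctl-C, where 3.18% of all probes were, and 9 in WI+CS24h-C, where 3.41% were. In CMJ the counts were 0 of 11 at 6 h (3.05% of all probes) and 1 of 11 at 24 h (2.44%). Because cold storage chose this gene, nothing is read from these counts.

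The comparisons that the choice of CKM did not use gave no call. Warm ischemia alone gave 0 calls among the 11 probes in cortex (0 at an unadjusted p under 0.05 as well), where 0.0849% of all probes were called, and the probe from base 1481 differed by −0.07 (SE 0.377, adjusted p = 1 by limma). In WI-CMJ it differed from Ctl-CMJ by −0.42 (SE 0.569, adjusted p = 0.847), with 0 of 11 probes called (3 at an unadjusted p under 0.05) against 0.787% of all probes. Between 6 h and 24 h of cold storage it differed by 0.13 (SE 0.377) in C and 0.12 (SE 0.569) in CMJ, both with an adjusted p of 1, and 0% and 0.00229% of all probes were called. None of the 11 reached an unadjusted p under 0.05 in either.

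CKM was higher in CMJ than in C by 10 of 11 probes in the control kidneys, without passing the test (0 of 11 called, 9 at an unadjusted p under 0.05). In the control kidneys the probe from base 1481 was 1.52 higher in CMJ (SE 0.494, adjusted p = 0.267), and 0.347% of all probes were called. In WI kidneys the difference was 1.18 (adjusted p = 0.442). The largest of the 11 differences between the control tissues was 1.56, for the probe from base 1344 (adjusted p = 0.179). The order of the 8 group means was WI-C, Ctl-C, WI-CMJ, Ctl-CMJ, WI+CS6h-C, WI+CS24h-C, WI+CS6h-CMJ and WI+CS24h-CMJ, from 5.06 to 8.16, and the ranges of neighbours in this order overlapped at every step.

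The other 4 CKM probes, from bases 605, 849, 1157 and 1163, were well above background on all 40 arrays and moved by between −0.02 and 0.62 with cold storage against Ctl in both tissues. In WI+CS24h-C the probes from bases 849 (0.38) and 1157 (0.62) lay above Ctl-C without overlap. The brightest CKM probe over all arrays, from base 605, had a mean of 8.33 ± 0.111 (SD, n = 5) in Ctl-C and 8.57 ± 0.923 in WI+CS6h-C. Of the 5 pairs of CKM probes that share 20 or more bases in a row, 3 lay within the 7 or within the 4 and were alike over the 40 arrays (r of 0.988 for bases 1344 and 1383, 0.995 for 1481 and 1587 and 0.97 for 1157 and 1163). The probe from base 1128 shares a run with both 1157 (r = 0.721) and 1163 (r = 0.681) and differed from them with cold storage. It averaged 2.29 ± 0.310 in Ctl-C and 4.65 ± 0.957 in WI+CS6h-C, while its neighbour from base 1157 averaged 7.12 ± 0.315 and 7.64 ± 0.333. Across the 40 arrays the 7 probes correlated with these 4 at r from 0.36 to 0.76, a description only, since the split was made on the same arrays. None of the 4 shared a run of 16 bases with a probe of another gene on the array, while among the 7 the probes from bases 1481 and 1587 each shared 16 with a probe of SFXN3. Which transcripts the CKM probes bind in kidney was not tested.

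**Figure D2:**
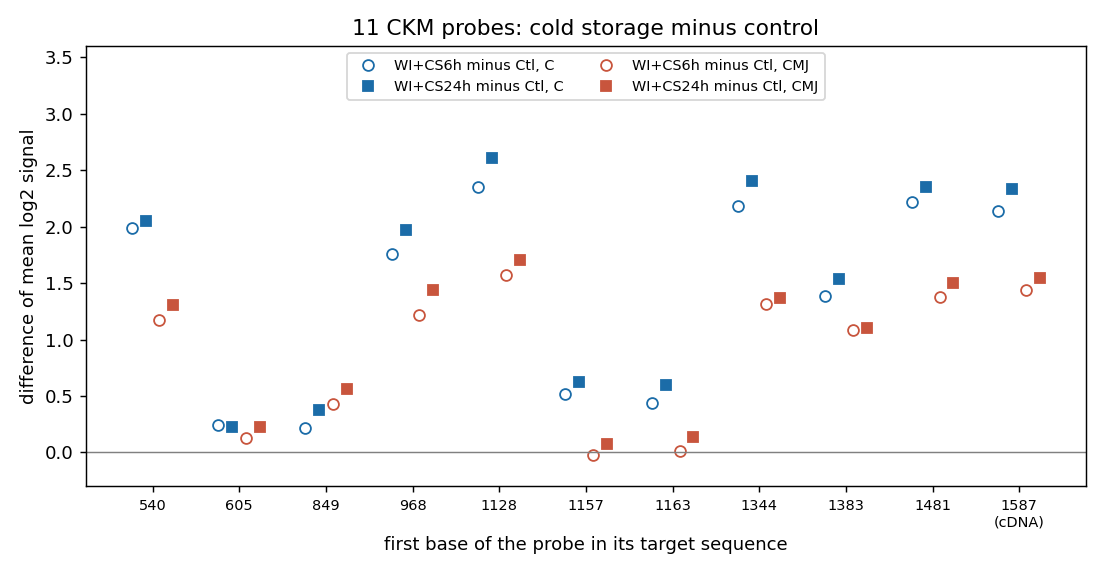
Difference in mean log2 signal between cold-stored and control kidneys (vertical axis) for each of the 11 CKM probes, ordered by first base (horizontal axis), with 6 h as open circles, 24 h as filled squares, C in blue and CMJ in red. The 7 probes that rose lie between 1.08 and 2.61, and the probes from bases 605, 849, 1157 and 1163 lie between −0.02 and 0.62.

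The genes most like CKM in profile depended on the probe in the same way. For the probe from base 605, the 5 symbols of 7153 with the highest Pearson r over the 40 arrays were MDH2 (0.952), SDF2L1 (0.941), FDPS (0.935), ATP5D (0.935) and SLC9A3R1 (0.932). MDH2 and ATP5D encode mitochondrial proteins of the citric acid cycle and of ATP synthase. For the probe from base 1481, added after the values were seen, they were P3H4 (0.942), RCOR2 (0.935), MAP1A (0.916), LPL (0.899) and PROM1 (0.898). The arrays share groups and kidneys, so these values describe likeness only.

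MYOM2, the myomesin of the M-band, was low before cold storage and higher after it in both tissues. Its log2 signal was 2.81, 3.18, 2.68, 2.15 and 1.52 in Ctl-C and 3.06, 2.50, 2.69, 3.25 and 2.51 in WI-C. It was 3.77, 4.31, 3.99, 4.89 and 2.84 in WI+CS6h-C and 4.26, 4.10, 4.45, 4.49 and 3.84 in WI+CS24h-C. At 24 h every cortex sample lay above every Ctl-C and WI-C sample, and at 6 h replicate 5 lay among them. The difference from Ctl-C was 1.49 at 6 h and 1.76 at 24 h. Ctl-C replicate 5, WI-C replicates 2 and 5 and WI+CS6h-C replicate 5 were not well above background, so no fold is given.

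In CMJ the MYOM2 probe was not well above background on any Ctl-CMJ array and on 1 of 5 WI-CMJ arrays. The Ctl-CMJ values were 2.07, 1.84, 1.22, 1.78 and 1.47, and the WI-CMJ values were 1.93, 2.45, 1.70, 2.38 and 0.12. After cold storage all 10 arrays were well above background, at 4.27, 4.21, 3.83, 4.41 and 3.61 after 6 h and 4.10, 4.11, 4.07, 4.44 and 3.56 after 24 h, with no overlap with Ctl-CMJ or WI-CMJ. Set against the lowest signal well above background on each control array, MYOM2 was at least 3.39-fold higher in WI+CS6h-CMJ and at least 3.36-fold higher in WI+CS24h-CMJ than in Ctl-CMJ. The measured means were 1.68 in Ctl-CMJ, 4.07 at 6 h and 4.06 at 24 h. Against WI-CMJ, where 1 array was well above background and replicate 5 was at 0.12, the measured means differed by 2.35 and 2.34, and by 1.95 and 1.94 without that replicate, so no fold is given. As the signal was low, the size depended on the background correction, and with normexp the differences from Ctl fell to 0.13 and 0.16 in C and 0.15 at both times in CMJ.

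Where the choice of MYOM2 did not use the contrast, it was not called. WI-C differed from Ctl-C by 0.34 (SE 0.327, adjusted p = 1) and WI+CS24h-C from WI+CS6h-C by 0.27 (SE 0.327, adjusted p = 1). In CMJ, the difference between 24 h and 6 h was −0.01 (SE 0.332, adjusted p = 1). Ctl-CMJ and WI-CMJ, mostly at background, had the lowest MYOM2 means and no order between them. The others ran from Ctl-C through WI-C, WI+CS6h-C, WI+CS24h-CMJ and WI+CS6h-CMJ to 4.23 in WI+CS24h-C, and the ranges of neighbours overlapped at every step. MYOM2 and the 7 CKM probes correlated at r from 0.41 to 0.47 over the 40 arrays. The symbols closest to MYOM2 were COBLL1 (0.927), RHOV (0.863), CENPC (0.860), RSRC2 (0.848) and INHBA (0.841).

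The 2 scan days of the arrays each held all 8 groups. For the CKM probe from base 1481 and for MYOM2, the differences of cold-stored kidneys from Ctl and from WI were above 0 on both days in both tissues. Because cold storage chose both genes, this is a description and nothing is read from it. The CKM probe was 1.95 and 2.40 higher in WI+CS6h-C than in Ctl-C on the first and second day, and MYOM2 was 1.59 and 1.43 higher. In WI+CS6h-CMJ against WI-CMJ, MYOM2 differed by 1.65 and 3.26. The WI-CMJ arrays of the second day, replicates 3 and 5, were not well above background for MYOM2 (1.70 and 0.12). For the CKM probe from base 605 the sign changed between the days, with differences between WI+CS6h and Ctl of −0.10 and 0.47 in cortex and of 0.70 and −0.26 in CMJ.

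The actins differed between probes as well. The skeletal actin ACTA1 had 9 probes starting before base 1200, all well above background on all 40 arrays, with means from 8.15 to 12.19. Its other 7 probes, from base 1217 onwards, had means from 0.37 to 4.67, and only the probe from base 1328 was well above background on all arrays, while the remaining 6 were so on 0 to 6 arrays. The 9 probes followed the smooth muscle actin ACTA2 (r from 0.45 to 0.99 with the ACTA2 probe from base 880), and the 7 others did not (r from −0.18 to 0.39). The coding sequences of the actins are very alike. The ACTA1 probe from base 644 matched the ACTA2 probe from base 593 at 56 of 60 bases (r = 0.976). The ACTA1 probe from base 449 shared a run of 22 bases with a probe of another actin, ACTB. Which actin the 9 probes bound was not tested, and they are reported with ACTA2.

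**Figure D3:**
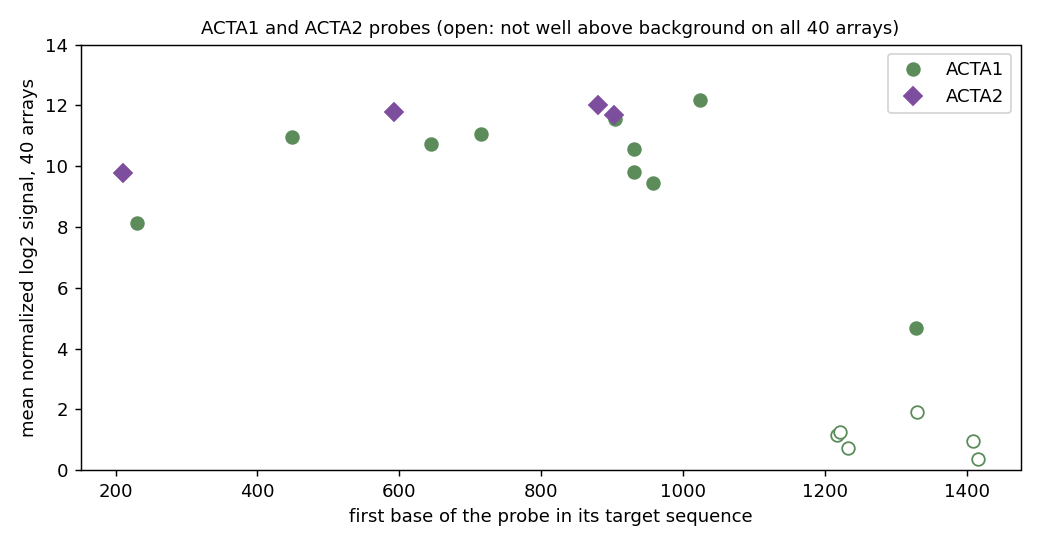
Mean normalized log2 signal over 40 arrays (vertical axis) of the 16 ACTA1 probes (green circles) and 4 ACTA2 probes (purple diamonds) by first base (horizontal axis), with open symbols where a probe was not well above background on all 40 arrays. ACTA1 probes before base 1200 sit between 8.15 and 12.19, and those after it between 0.37 and 4.67.

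ACTA2 was higher in CMJ than in C after warm ischemia. Its brightest probe, from base 880, gave 12.25, 12.28, 12.73, 12.09 and 13 in WI-CMJ and 11.35, 12.09, 11.93, 11.70 and 11.44 in WI-C, so that the groups met at 12.09. The difference was 0.77 (1.70-fold, SE 0.171, adjusted p = 0.0169), and 0.54 and 1.10 within the first and second scan day. All 4 ACTA2 probes were called, at 0.71 to 1.08, with 5 of the 16 ACTA1 probes, all before base 1200, at 0.54 to 1.10. With TNNC1, 10 of 45 probes (22.2%) were called in this comparison, against 0.863% of all probes. These calls are not independent of each other, since probes of 1 gene, and probes of both actins, can read the same transcripts.

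The difference between tissues was not called in the other states. The ACTA2 probe from base 880 was 0.24 higher in Ctl-CMJ than in Ctl-C (SE 0.171, adjusted p = 0.993), and 0 of 45 probes of the muscle genes were called there, in WI+CS6h, where 0.0643% of all probes were, or in WI+CS24h, where 0% were (12, 3 and 2 of 45 at an unadjusted p under 0.05). The test of whether warm ischemia acted differently in the tissues called 0 of 45 probes (7 at an unadjusted p under 0.05) and 0% of all probes. The 10 calls, though not the sizes of the differences, depended on single arrays: without WI-C replicate 1 or 5, or WI-CMJ replicate 3 or 5, the count was 0, and without WI-C replicate 4 it was 3. Over the fits that each left out 1 array, the ACTA2 probe from base 880 differed by 0.63 to 0.86. The count was also 0 with the slide as a block, where this probe differed by 0.77.

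Of 20 smooth muscle and mural cell genes measured, 4 were called higher in WI-CMJ than in WI-C, where 0.863% of all probes were called, with a median difference of 0.37 against −0.02 for all probes. These were CNN1 (1.93, adjusted p = 0.0142), the pericyte marker RGS5 (1.09, adjusted p = 0.0191), the smooth muscle regulator MYOCD (1.01, adjusted p = 0.0289) and the tropomyosin TPM2 (0.78, adjusted p = 0.0396), which are named because they were called. Of the marker lists, 1 of 4 fibroblast genes (COL1A2, 1.51), 1 of 6 adipocyte genes (ADIPOQ, 1.40) and 1 of 5 genes of the loop, distal tubule and collecting duct (SLC12A1, 1.16) were called higher and 1 of 5 proximal tubule genes (SLC22A6, −0.64) lower in the same comparison, against the same 0.863% of all probes. None of the 2 glomerular, 5 endothelial and 3 blood cell markers measured was called. How these list calls held without single arrays or with a block was not examined. With the slide as a block, the calls over all probes in this comparison fell from 376 to 119. The summed log2 level of the 4 fibroblast markers ran from 12.26 to 12.48 in WI-C and from 12.50 to 13.77 in WI-CMJ. Their part in the actin difference was not tested.

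After cold storage, ACTA2 was called by 1 probe in 1 comparison. The probe from base 211 was 0.92 higher in WI+CS6h-C than in Ctl-C (SE 0.243, adjusted p = 0.0337), while the 3 brighter probes differed by 0.33 to 0.46 (adjusted p = 0.0917 to 0.182). An ACTA1 probe from base 1329, well above background on no Ctl-C array and on 3 of 5 WI+CS6h-C arrays, was at least 1.55-fold higher (measured means 2.80 and 1.22, adjusted p = 0.00901). The ACTA1 probe from base 1328, which covers nearly the same bases, was not called. These were 2 of the 33 probes of the 7 genes left in this comparison (6.06%), against 4.45% of all probes, and WI+CS24h-C gave 0 of 33 (17 at an unadjusted p under 0.05) against 2.90%. Without Ctl-C replicate 2, 3, 4 or 5 or WI+CS6h-C replicate 2, the ACTA2 probe was no longer called (log2 difference 0.78 to 0.97). Against WI-C, 0 of 33 were called after 6 h (7 at an unadjusted p under 0.05), where 2.44% of all probes were, and 0 after 24 h (10 at an unadjusted p under 0.05), where 1.68% were.

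DES, the desmin of intermediate filaments, rose in CMJ with warm ischemia by 2 of its 5 probes. The probe from base 739 gave 4.55, 4.12, 4.33, 4.27 and 4.65 in Ctl-CMJ and 4.88, 5.22, 5.74, 4.93 and 6.17 in WI-CMJ. Every WI-CMJ array lay above every Ctl-CMJ array. The difference was 1.00 (SE 0.231, adjusted p = 0.0445), and 0.52 and 1.64 within the first and second scan day. The probe from base 1372 rose by 0.91 (adjusted p = 0.0469) and the probe from base 1336 differed by 0.87 (adjusted p = 0.0603), in both cases without overlap.

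The brightest DES probe, from base 2189, differed by only 0.27 (SE 0.142, adjusted p = 0.447), from 11.92 ± 0.0410 in Ctl-CMJ to 12.20 ± 0.298 in WI-CMJ (SD, n = 5). The 4 probes of the DES reference mRNA moved together over the arrays (r from 0.80 to 0.98). The 5th DES probe, from base 3621, whose description also names NEFH, a neurofilament gene, was not well above background on any of the 40 arrays. Both DES calls were lost without any one of Ctl-CMJ replicates 1 to 4 or WI-CMJ replicates 2, 3 and 5, at log2 differences of 0.74 to 1.04. Both were also lost with the scan day as a block (1.01 with an adjusted p of 0.0543 for base 739 and 0.90 with 0.0574 for base 1372) or the slide (0.97 with 0.355 and 0.89 with 0.351). These 2 of 45 probes (4.44%) compare with 0.787% of all probes called.

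In cold-stored CMJ the DES probe from base 739 gave 4.84, 5.27, 4.86, 5.37 and 5.73 at 6 h and 4.78, 4.83, 5.30, 5.27 and 5.41 at 24 h, again above every Ctl-CMJ array. It rose by 0.83 at 6 h (SE 0.231, adjusted p = 0.0475) and differed by 0.73 at 24 h (adjusted p = 0.0766). It was the only call among 33 probes at 6 h (3.03%, against 3.33% of all probes), and 0 of 33 were called at 24 h (11 at an unadjusted p under 0.05), against 3.70% of all probes. Without Ctl-CMJ replicate 1, 2, 3, 4 or 5 or WI+CS6h-CMJ replicate 2, 4 or 5 it was lost, at 0.70 to 0.89, as it was with the scan day (0.83, adjusted p = 0.0541) or the slide (0.86, adjusted p = 0.12) as a block. In cortex DES was not called, and the probe from base 739 averaged 4.38 ± 0.270 in Ctl-C, 4.69 ± 0.614 in WI-C and 5.11 ± 0.354 in WI+CS6h-C.

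**Figure D4:**
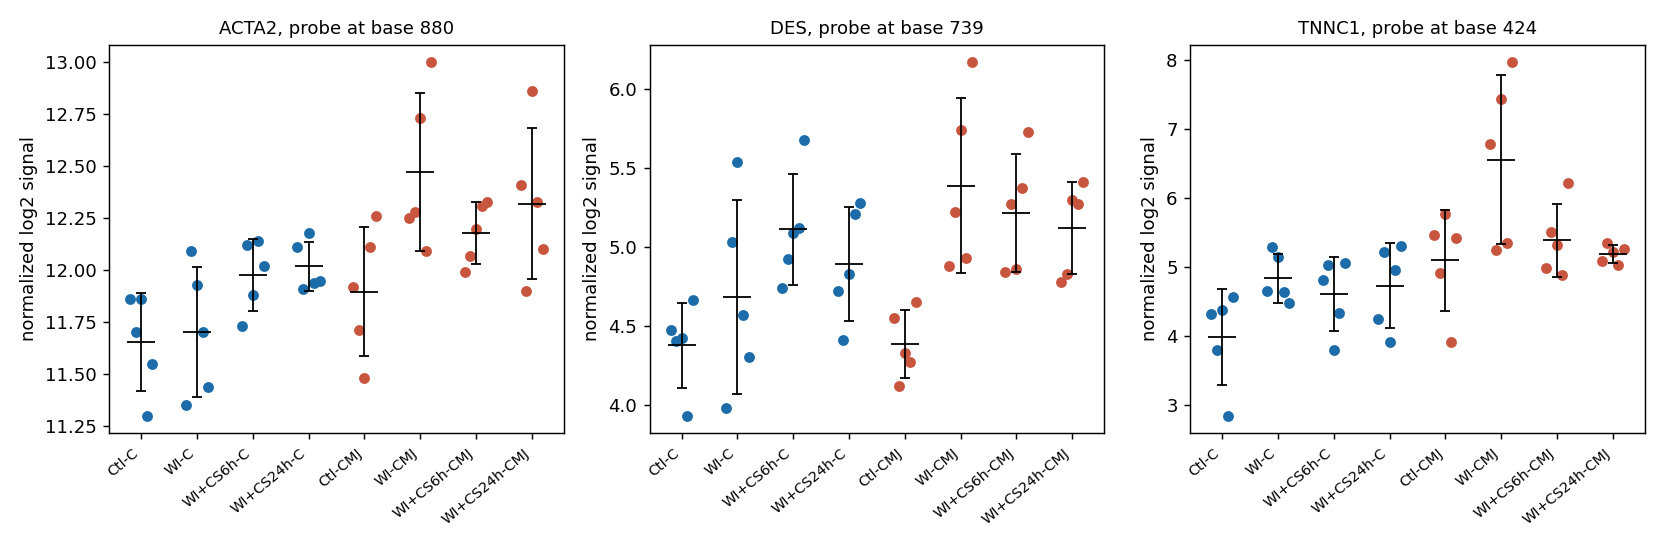
Normalized log2 signal of the ACTA2 probe from base 880, the DES probe from base 739 and the TNNC1 probe from base 424 in the 8 groups, with C in blue and CMJ in red. Points are arrays, and the bar and whiskers are the mean and SD of 5 arrays. In each panel WI-CMJ has the highest mean, 12.47 for ACTA2, 5.39 for DES and 6.55 for TNNC1.

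TNNC1, the calcium-binding troponin of slow and cardiac muscle, had its highest level in WI-CMJ. It was well above background on all 40 arrays. Its values were 5.46, 4.91, 5.77, 3.91 and 5.42 in Ctl-CMJ and 6.78, 5.24, 7.44, 5.34 and 7.97 in WI-CMJ, while WI-C gave 4.65, 5.29, 5.14, 4.63 and 4.47. WI-CMJ replicates 1, 3 and 5 were above all other arrays and replicates 2 and 4 lay within the Ctl-CMJ range. The difference between WI-CMJ and WI-C was 1.72 (3.29-fold, SE 0.414, adjusted p = 0.0307). It was not called without WI-C replicate 1, 4 or 5 or WI-CMJ replicate 1, 3 or 5 (1.36 to 1.67). Within the first and second scan day it was 0.98 and 2.82. The difference of WI-CMJ from Ctl-CMJ was 1.46 (SE 0.459) and was not called (adjusted p = 0.133). It was 0.19 on the first day and 2.95 on the second, which held 2 of the 5 WI-CMJ arrays. With the scan day as a block it was not called either, and whether the difference depended on the day was not tested. In the same comparison, which holds the DES calls, the 4 fibroblast markers differed by 0.12 to 1.07 (median 0.54) and the medians of the smooth muscle and adipocyte lists were 0.32 and 0.35, against −0.01 for all probes. The summed log2 level of the fibroblast markers ran from 12.42 to 13.30 in Ctl-CMJ and from 12.50 to 13.77 in WI-CMJ, and their part in the DES and TNNC1 differences was not tested.

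TNNC1 in cold-stored CMJ was close to control, at 5.38 ± 0.531 after 6 h and 5.19 ± 0.130 after 24 h against 5.09 ± 0.730 in Ctl-CMJ. The difference of WI+CS24h-CMJ from WI-CMJ was −1.36 (SE 0.459, adjusted p = 0.104). In cortex the group means lay between 3.98 and 4.83 and no comparison was called.

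TNNT1, the slow skeletal troponin that holds the troponin complex on the thin filament, was not called in any of the 19 comparisons. Its cold-stored kidneys were split by number. The brightest probe, from base 698, gave 2.70, 2.17, 5.16, 4.38 and 6.05 in WI+CS6h-C and 2.59, 3.16, 4.57, 5.46 and 5.32 in WI+CS24h-C. In CMJ it gave 2.65, 2.84, 5.11, 4.91 and 5.70 at 6 h and 3.35, 2.68, 5.50, 5.01 and 5.67 at 24 h. In all 4 cold-stored groups replicates 1 and 2 were the lowest, below every Ctl and WI array of either tissue, which ran from 3.95 to 5.24.

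The spread over cold-stored kidneys was thus wider than over controls, with an SD of 1.63 in WI+CS6h-C and 0.249 in Ctl-C. The means of these groups were 4.09 and 4.25 (difference −0.15, SE 0.639, adjusted p = 0.907). In CMJ all 4 TNNT1 probes had lower means after cold storage than in Ctl-CMJ, by −1.22 to −0.59 at 6 h and −1.24 to −0.29 at 24 h, and the probe from base 698 differed by −0.63 (SE 0.589, adjusted p = 0.669) and −0.43 (adjusted p = 0.764). The other 3 TNNT1 probes, from bases 258, 571 and 663, correlated with it and each other at r from 0.76 to 0.97.

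The CKM probe from base 605 was split by number in another way. Replicate 5 was the highest in each cold-stored group, at 10.09, 9.87, 9.94 and 10.06, and the other 16 cold-stored samples lay between 7.71 and 8.69. For the CKM probe from base 1481, replicates 3 and 4 were the lowest in cold-stored cortex at both times, and replicate 4 was in CMJ. The labels state that the kidneys sampled at 6 h and 24 h were the same, without saying that equal numbers mark the same kidney.

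**Figure D5:**
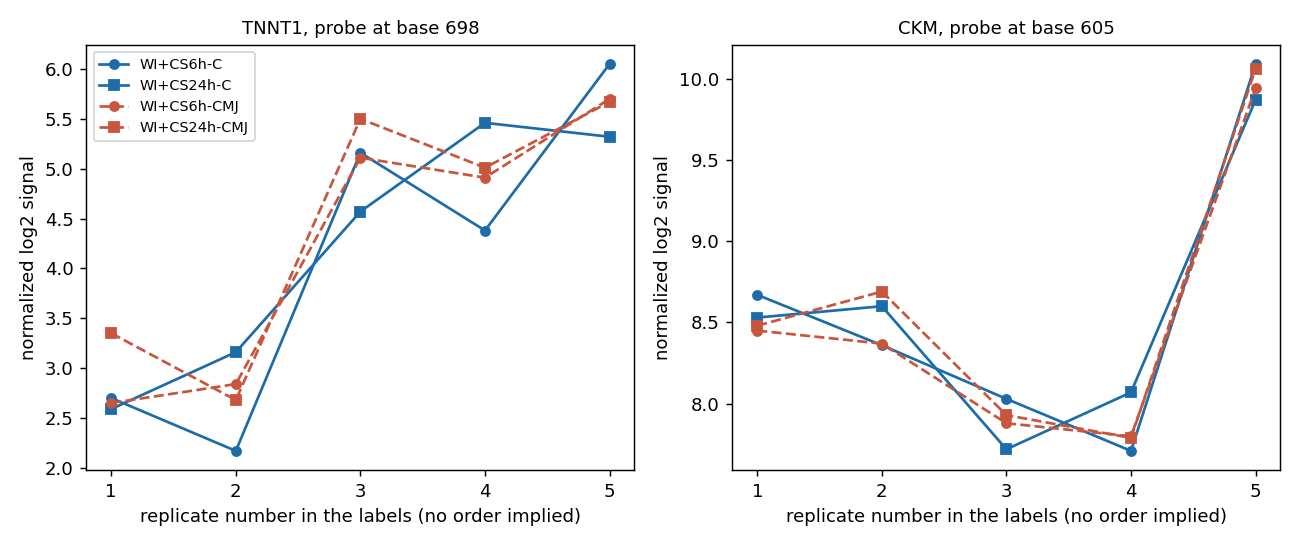
Normalized log2 signal of the TNNT1 probe from base 698 (left) and the CKM probe from base 605 (right) in the 4 cold-stored groups (lines) by replicate number (horizontal axis), with C in blue solid lines and CMJ in red dashed lines, 6 h as circles and 24 h as squares. TNNT1 sits between 2.17 and 3.35 in replicates 1 and 2 and between 4.38 and 6.05 in the others, and CKM sits between 9.87 and 10.09 in replicate 5.

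MB and MYL2, both abundant in slow and cardiac muscle, were near background throughout. The MB probe was not well above background on any array, with a mean of 0.18 over the 40 arrays. The MYL2 probe from base 234 was not either, and the probe from base 24 was on 1 array. The MYL2 probe from base 234 passed the test in WI+CS6h-CMJ against WI-CMJ (adjusted p = 0.0484) with both groups below background, so no fold is given. It was the only call among 33 probes (3.03%, against 3.28% of all probes), and WI+CS24h-CMJ against WI-CMJ gave 0 (2 at an unadjusted p under 0.05), against 3.34% of all probes. None of the 33 probes was called for a tissue difference in the response to 6 h or 24 h of cold storage, where 0% of all probes were (2 and 1 at an unadjusted p under 0.05).

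Of 48 genes on a striated sarcomere list, 28 had a probe, 14 of them well above background on all 40 arrays and 6 on none. In WI+CS6h-C against Ctl-C 1 of 28 was called, higher, where 4.45% of all probes were called, and in WI+CS24h-C 2, where 2.90% were, with medians of 0.17 and 0.14 against 0.06 and 0.01 for all probes. MYLPF, a fast skeletal myosin light chain, rose by 0.94 (adjusted p = 0.0397) and 0.97 (adjusted p = 0.0439). TNNI1, the slow skeletal inhibitory troponin, rose by 1.30 at 24 h (adjusted p = 0.0448). Of the 10 fits that each left out 1 array, MYLPF kept its call in 4 at 6 h and 3 at 24 h and TNNI1 in 3, and Ctl-C replicates 1, 2 and 3 were among those whose absence ended each call.

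In CMJ, MYLPF was called with warm ischemia, and TNNI3 and TCAP against WI-CMJ after cold storage. MYLPF rose in WI-CMJ by 0.96 against Ctl-CMJ (adjusted p = 0.0295), the single call of 28 (0.787% of all probes), and was not called without Ctl-CMJ replicate 1, 2, 3 or 4 or WI-CMJ replicate 3, 4 or 5. Against WI-CMJ, TNNI3, the cardiac inhibitory troponin, rose by 0.67 at 6 h (adjusted p = 0.0227) and 0.78 at 24 h (adjusted p = 0.00891). TCAP, which caps titin at the Z-disc, rose by 0.81 (adjusted p = 0.00222) and 0.68 (adjusted p = 0.00753). They were 2 of 28 at each time, against 3.28% and 3.34% of all probes. The calls of TCAP at both times and of TNNI3 at 24 h held without any single array, and that of TNNI3 at 6 h was lost without WI-CMJ replicate 2 or 5 or WI+CS6h-CMJ replicate 5. Before cold storage both were lower in WI-CMJ than in Ctl-CMJ without overlap, by −0.55 for TNNI3 (adjusted p = 0.105) and −0.56 for TCAP (adjusted p = 0.0550). No gene of the list was called against Ctl-CMJ in cold-stored CMJ.

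Of 38 genes of striated muscle metabolism, calcium handling and regulation, 24 were measured, and 1 was called in each of 7 comparisons, in which 0.863% to 4.45% of all probes were called. ANKRD1, a cardiac ankyrin repeat protein, was 1.19 higher in WI-CMJ than in WI-C (adjusted p = 0.00618), and how this call held without single arrays was not examined. SLN, a small inhibitor of the calcium pump, fell by 0.64 in WI+CS6h-C (adjusted p = 0.0399), by 0.66 in WI+CS24h-C (adjusted p = 0.0435) and by 0.69 in WI+CS6h-CMJ (adjusted p = 0.0299), each against Ctl. PVALB, a calcium buffer of fast fibres that the distal tubule also makes, rose by 1.49 in WI+CS6h-C against WI-C (adjusted p = 0.0411). CKMT2, the mitochondrial creatine kinase of striated muscle, rose against WI-CMJ by 0.87 at 6 h (adjusted p = 0.00185) and 0.73 at 24 h (adjusted p = 0.00618), calls that held without any single array. Before cold storage CKMT2 was lower in WI-CMJ than in Ctl-CMJ without overlap, by −0.48 (adjusted p = 0.118), and in cold-stored CMJ it differed from Ctl-CMJ by 0.39 (adjusted p = 0.151) and 0.26 (adjusted p = 0.369). The SLN calls held in 4, 2 and 5 of 10 fits that each left out 1 array, and were lost among others without Ctl replicate 1, 2 or 3 of the tissue, and the PVALB call held in 2 of 10, without WI+CS6h-C replicate 3 or 4. Of the creatine system 4 of 8 genes were measured, and CKMT2 was the only one called.

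Of 20 smooth muscle genes, 1 rose in cortex with cold storage against Ctl-C, where 4.45% of all probes were called at 6 h and 2.90% at 24 h. CNN1, the calponin of smooth muscle, rose by 1.08 in WI+CS6h-C (adjusted p = 0.0241) and 1.15 in WI+CS24h-C (adjusted p = 0.0216) against Ctl-C, without overlap. Without Ctl-C replicate 2 or 4, WI+CS6h-C replicate 3 (for 6 h) or WI+CS24h-C replicate 1 (for 24 h) it was not called. PPP1R14A, an inhibitor of myosin phosphatase, fell by 1.07 in WI+CS6h-CMJ against WI-CMJ (adjusted p = 0.0303), the single call of 20 against 3.28% of all probes, and was not called without WI-CMJ replicate 3 or 5 or WI+CS6h-CMJ replicate 1, 2 or 5.

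Markers of skeletal muscle fibres stood beside the rise of CKM and MYOM2 as follows. Of 13 measured, MYH2, MYH4 and MYL1 (fast fibre myosin chains) and ATP2A1 (the fast fibre calcium pump) were not well above background on any array, and 4 were so on all 40. The summed log2 level of the list ran from 8.13 to 8.52 in Ctl-C, 8.31 to 8.79 in WI-C, 8.28 to 8.97 in WI+CS6h-C and 8.40 to 9.06 in WI+CS24h-C. In CMJ it ran from 8.29 to 8.69 in Ctl, 8.52 to 8.90 in WI, 8.5 to 8.79 in WI+CS6h and 8.38 to 8.73 in WI+CS24h. MYLPF was the only one of the 13 called in cold-stored cortex against Ctl-C, where 4.45% of all probes were called at 6 h and 2.90% at 24 h. It kept this call in 4 and 3 of the 10 fits that each left out 1 array. The part of the list in the rise of CKM and MYOM2 was not tested.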

How the data were processed

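Pig kidney RNA was hybridized to one-colour Agilent arrays, 40 in all. The authors extracted spot intensities with Agilent Feature Extraction 11.5.1.1, and the deposited processed intensity is background-subtracted. The authors also deposited a table of normalized log2 values with 1 row per identifier, which served as an alternative.

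Here, processed signals of 43803 non-control spots were log2-transformed, spots flagged as outliers were left out, arrays were quantile-normalized together and spots of 1 probe were averaged, giving 43603 probes. limma 3.58.1 in R 4.3.3 was fitted to the 20 arrays of a tissue (6 comparisons each), and to all 40 arrays for differences between tissues and their interactions. These fits had no term for the kidney, and the replicate number as a block served as an alternative. The code was tested on simulated data. A probe not well above background on any array of a group has only a bound there, taken as the lowest signal of a probe well above background on each array. Symbols were available for 15058 probes.

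The members and lists were chosen with earlier results of these data known. Named were all probes of the members, the brightest probe of a gene standing for it, the 5 genes most correlated with CKM and MYOM2, and in each list up to 4 called genes per tissue. The CKM probe from base 1481 and the split of CKM probes were added after the values were seen. The lists were striated sarcomere, striated muscle metabolism, smooth muscle, the creatine system, and markers of skeletal muscle fibres, adipocytes, proximal tubule, loop to collecting duct, glomerulus, fibroblasts, endothelium and blood cells.

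Replicate numbers were checked by the correlation of same-numbered deviations from group means. For 24 h against 6 h they ran from 0.369 to 0.657 in CMJ and from −0.261 to 0.392 in C, and between the tissues from 0.171 to 0.501 at 6 h and from 0.181 to 0.545 at 24 h. The best match over time had the same number for 5 of 5 samples in CMJ and 2 of 5 in C. Between the tissues it had the same number for 3 of 5 at 6 h and 2 of 5 at 24 h. Numbers were therefore taken to pair samples in CMJ over time only, and pairing in cortex or between tissues was not settled. The number of arrays limits the precision.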

Additional observations from a re-analysis of the deposited data

Results flagged for a closer look

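Of 80 groups of 5 arrays, over 10 probes, 4 held an array whose gap to the nearest one was more than 0.71 of the range of the group. Chance flags about 1 in 20 groups. The CKM probe from base 605 was 8.78 in WI-CMJ replicate 4, and the next array of the group was at 8.45. The other 3 concerned the MYL2 probe from base 234, which was not well above background on any of the arrays: WI+CS24h-C replicate 4 was at 1.91 with the next at 0.32, Ctl-CMJ replicate 5 at 0.84 with the next at 0.15, and WI-CMJ replicate 1 at 0.47 with the next at 0.23.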

How the results depend on the processing

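Over the alternatives, CKM (the probe from base 1481) and MYOM2 stayed higher in cold-stored than in Ctl and WI kidneys in both tissues. The lowest values came from normexp, 0.66 for CKM and 0.13 for MYOM2. Of the CKM and MYOM2 values of at least 0.5 in size given without a test, 2 reversed, both under normexp: the interaction of tissue with WI+CS24h for MYOM2 (−0.01) and with WI+CS6h for the CKM probe from base 968 (0.01). A further 15, all under 0.5, changed sign in at least 1 setting, such as the CKM probe from base 605 in WI+CS24h-C versus WI-C, at −0.02 and 1.38 with the probes of an identifier averaged. With all CKM probes of an identifier averaged, CKM rose by 1.47 in WI+CS24h-C against Ctl-C.

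Counts of called probes moved as follows. In WI+CS6h-C versus Ctl-C the 2 calls became 6 with quantile normalization within group, 1 with normexp and 0 with values per identifier (averaged here or as deposited) or only the groups compared. In WI+CS24h-C versus Ctl-C the 0 became 1 with 75th percentile scaling, the filter on dim probes, or only the groups compared. In WI+CS6h-C versus WI-C it became 8 with normalization within group. For WI-CMJ versus Ctl-CMJ the 2 became 3 with the filter on dim probes or the replicate block, 1 with normalization within group, and 0 with 75th percentile scaling, normexp, values per identifier (both), the slide or the scan day (added after seeing the data) as a block, or only the groups compared. For WI+CS6h-CMJ versus Ctl-CMJ the single call became 3 with normalization within group or the replicate block and 0 with 75th percentile scaling, normexp, values per identifier (both) or the slide as a block. With the scan day as a block it was again 1, but of the MYL2 probe from base 234 (adjusted p = 0.0418) in place of DES. For WI+CS24h-CMJ versus Ctl-CMJ the 0 became 3 with normalization within group and 1 with the replicate block or only the groups compared. For WI+CS6h-CMJ versus WI-CMJ the single call became 0 with 75th percentile scaling, normexp, the dim filter, values per identifier (both), the slide as a block or only the groups compared. Between WI-CMJ and WI-C the 10 became 6 with normalization within tissue, 5 with values per identifier (both) and 0 with the slide as a block or only the groups compared. Between the tissues at 6 h, normalization within group gave 1. The cause of these moves was not tested.

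With the replicate block, WI+CS24h-CMJ versus WI-CMJ gave 1 call (TNNC1, adjusted p = 0.0389). In the 4 comparisons that the block moved, the replicate numbers do not pair the samples. For 24 h against 6 h in CMJ, where they were taken to, the count stayed at 0.

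Leaving out 1 array gave 1 to 3 calls in WI+CS6h-C versus Ctl-C, 0 to 1 for WI+CS24h-C versus either Ctl-C or WI-C, 0 to 11 between WI-CMJ and WI-C, 0 to 4 for WI-CMJ versus Ctl-CMJ, 0 to 1 for WI+CS6h-CMJ versus either reference, 0 to 1 for WI+CS24h-CMJ versus WI-CMJ, and 0 elsewhere. Signals near background limit MYOM2, MYL2 and MB.

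In the comparisons within a tissue, no call of the named list genes changed direction in the 12 alternatives, but many were lost. The list calls between WI-CMJ and WI-C were not put through these alternatives. At 6 h and 24 h against WI-CMJ, CKMT2 kept its call in 11 and 11, TCAP in 9 and 9 (down to 0.18 and 0.15) and TNNI3 in 7 and 10. Against Ctl-C, MYLPF kept it in 8 and 6, CNN1 in 10 and 10, SLN in 6 and 7 and TNNI1 at 24 h in 5 (down to 0.14). MYLPF in WI-CMJ kept it in 7, SLN in WI+CS6h-CMJ in 7, PVALB in 8 and PPP1R14A in 10.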

Other observations

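A second probe, described on the array as similar to myomesin 2 but with neither the symbol nor the gene ID of MYOM2, was not well above background on any of the 40 arrays, with group means from 0.54 to 0.94 on the log2 scale. Of the myogenic regulators, MYOG was well above background on all 40 arrays, with a mean log2 signal of 9.80 for its brighter probe. MYOD1 and MYF5 were not well above background on any array and MYF6 was on 1.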
